A study of Vitis vinifera with 8 samples.

Results

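Post-véraison grape berries and pre-véraison grape berries were compared after the same hour at 38 °C. The comparison rests on 4 of the 8 libraries of the series, 2 biological replicates at each stage, and covers every gene of the deposited tables, of which 16777 of 25771 had enough signal to be tested. The plants were fruiting L1 Pinot Meunier microvines, dwarf vines regenerated from one cell layer of Pinot Meunier that carry an altered allele of the gibberellin signalling gene VvGAI1, and all groups shared this background. They stood in a growth room at 16 °C with 16 hours of light. Pre-véraison berries were collected 5 to 6 weeks after flowering and post-véraison berries 12 to 14 weeks after it, and seeds were removed. The heated berries were picked at 10 AM, 1 hour after the room had been switched to 38 °C. Berries of the 4 unheated libraries were picked at 9 AM. The unheated libraries give the same stage difference at 16 °C and its comparison with that at 38 °C. They also enter the filter on low values and the estimate of spread, which all 8 libraries share. Stage and berry age cannot be told apart in this design, nor can temperature and the hour of picking. The labels do not say whether the replicates came from different plants or different berries of the same plants, so p-values measure the spread between these libraries.

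Véraison is the onset of ripening in the grape. A hard green berry with working chloroplasts, rich in organic acids and tannins, then softens, imports hexoses and, in coloured varieties, accumulates anthocyanins in the skin, while thaumatin-like proteins and chitinases become the main soluble proteins of the juice. Heat, in plants as in other organisms, sets off heat shock transcription factors, which switch on chaperone genes within minutes.

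Expression was measured as RPKM, reads per kilobase of gene and per unit of 1e+06 reads of the library. The heated pre-véraison libraries were scaled by 7810965 and 8821163 reads and the heated post-véraison ones by 9459339 and 10121400 reads. At the median gene length of 1540 bp, 3 reads made 0.190 to 0.250 RPKM in these 4 libraries. The 10 most abundant genes took 8.82 and 9.74% of the reads before véraison and 25.4 and 23.9% after it. RPKM is a share of the library, so that what a few genes take is missing from all others. Most counts of called genes below are therefore also given after median-ratio scaling, which sets the typical gene equal between libraries. The stage labels were set beside known markers, chosen with results of these data known, so this is not an independent check. UFGT and TL3 were higher and the photosystem gene PSBP1 lower in both post-véraison libraries, with the values given below. Of all listed genes 309 carry a descriptive name, and 250 of these were tested. The list of seed genes matched only LECY1, by its letters, so the removal of seeds could not be checked. These are whole berries, in which fewer cells of a type and less RNA per cell cannot be told apart.

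Most genes differed in level between heated berries of the 2 stages. At an adjusted p under 0.05 in limma, 2889 genes were higher after véraison (17.2% of those tested) and 8900 were lower (53.0%), together 70.3%. The median difference over all genes tested was -0.45 on the log2(RPKM + 1) scale, the scale of every log2 difference and standard error (SE) given here. Median-ratio scaling moved this median by 0.43, to -0.03, and then 5396 genes were higher (32.2%) and 5791 lower (34.5%). All 2889 genes called higher were higher under both scalings. Median-ratio scaling raises post-véraison values relative to pre-véraison ones, so this agreement adds no support. Of the 8900 called lower, 5791 were also lower after median-ratio scaling, 3078 were then not called and 31 were then higher. Large differences were frequent: 1277 genes were higher and 4706 lower by at least 2-fold, 264 and 526 by at least 8-fold, and 70 and 60 by at least 32-fold, and with median-ratio scaling these became 2177 and 2968, 344 and 368, and 98 and 33. For 14386 genes (85.7%) the 2 libraries of one stage lay wholly above the 2 of the other.

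**Figure D1:**
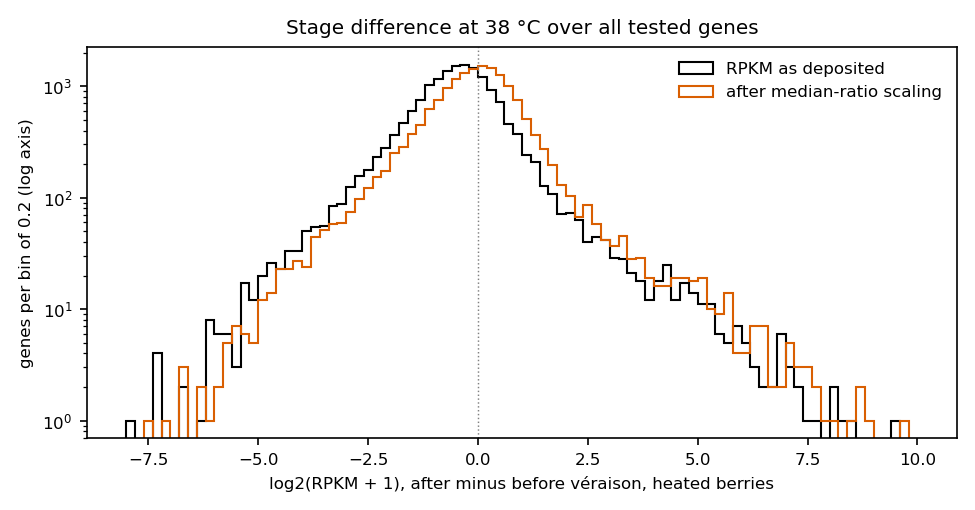
The panels show the spread of the log2 stage difference (post-véraison minus pre-véraison, log2(RPKM + 1)) over the 16777 genes tested in heated berries, as deposited and after median-ratio scaling. Scaling shifted the median from -0.45 to -0.03, and the counts of genes higher and lower went from 2889 and 8900 to 5396 and 5791.

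The most abundant transcripts were largely different at the 2 stages. Among the 10 genes with the highest mean, which ran from 2617 to 15833 RPKM before véraison and from 11259 to 34326 RPKM after it, 2 were shared. Before véraison the 1 named gene among them was PIP1;3, an aquaporin of the plasma membrane, with 3105 and 3424 RPKM against 1030.5 and 985 RPKM after véraison. After véraison 4 were named. CHI4D, a class IV chitinase, stood at 670.2 and 767 RPKM before and 14959 and 14922 RPKM after véraison. TL3, a thaumatin-like protein gene, stood at 164 and 199 before and 13205 and 11907 RPKM after. MRIP1, a gene described as ripening-induced in Merlot, stood at 382 and 363 before and 14049 and 14165 RPKM after. GRIP61, one of the grape ripening-induced protein genes, stood at 1308 and 825 before and 11006 and 13005 RPKM after. None of these overlapped between stages, as for 85.7% of all genes tested. The rises were 4.38 ± 0.18, 6.11 ± 0.18, 5.24 ± 0.15 and 3.52 ± 0.27 (log2, SE) in the order given, and PIP1;3 fell by 1.69 ± 0.14, with limma adjusted p-values from 3.0e-09 to 2.3e-06. Of the top 10 after véraison 8 were called higher than before it, and of the top 10 before véraison 7 were called higher than after it.

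Some genes went from almost no reads to abundant ones. Those with at most 3 reads over both heated pre-véraison libraries and a mean of at least 5 RPKM after véraison numbered 56, and 106 genes showed the reverse. GRIP22 had 3 reads before véraison and 8888 after it, a ratio of 2517 with a 95% counting interval of 861 to 12210. GER7, a germin-like protein gene, had 3 and 4673 reads, a ratio of 1323 (453 to 6418). UFGT, the glucosyltransferase that completes anthocyanins, had 1 and 1295 reads, a ratio of 1100 (197 to 43480), and HT5, a hexose transporter gene, 3 and 1147 reads, a ratio of 325 (111 to 1577). In the other direction TIP4, an aquaporin of the vacuolar membrane, had 292 reads before and 1 after véraison, a ratio of 344 (61.2 to 13620), and MYB12, a regulator of flavonol synthesis, 141 and 1, a ratio of 166 (29.3 to 6602). GA2ox6, which encodes a gibberellin-inactivating oxidase, had 66 reads before véraison and 0 after it, which makes it at least 25.9-fold lower against a floor of 3 reads over both libraries. The intervals cover counting error only. Over all genes, named or not, the 10 largest rises lay between 7.19 and 9.44 and the 10 largest falls between -6.12 and -7.84 on the log2 scale. GRIP22, GST4 and GER7 were the named genes among these rises, and no named gene was among these falls. The largest rise was LOC100264626, with 1.64 and 0.160 RPKM before and 1285 and 1151 RPKM after véraison, and the largest fall LOC100257854, with 292 and 307 RPKM before and 0.217 and 0.405 RPKM after.

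**Figure D2:**
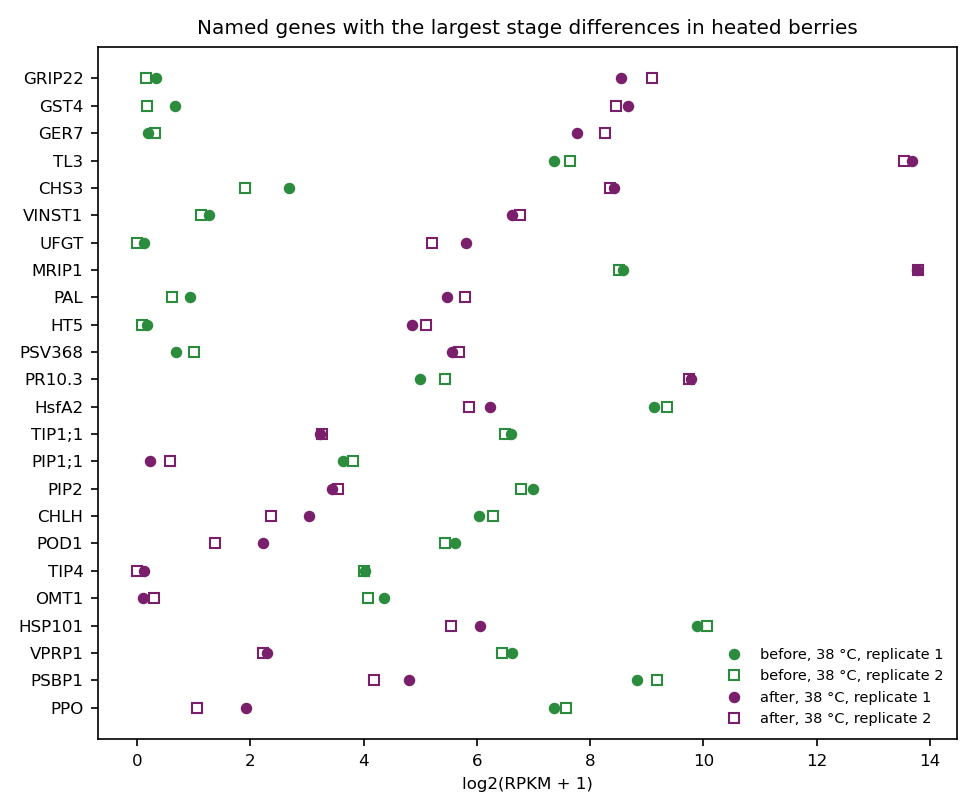
The horizontal axis gives log2(RPKM + 1) in each heated library for the named genes with the largest rises and falls, 12 each way, in green before and purple after véraison, with circles for replicate 1 and squares for replicate 2. Lack of overlap between the stages was required of the genes shown. PPO, PSBP1 and VPRP1 sit higher before véraison while GRIP22, GST4 and GER7 sit higher after it.

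Genes of ripening-induced and pathogenesis-related proteins were mostly higher after véraison. Of 25 tested, 16 were higher, 4 lower and 5 not called (19, 4 and 2 with median-ratio scaling), and their median difference was 2.02 against -0.45 for all genes. The shares over all genes tested, 17.2% higher and 53.0% lower (32.2 and 34.5% with median-ratio scaling), are the background of this and each following count. Their share of the reads was 0.831 and 0.789% in the heated pre-véraison libraries and 9.95 and 10.4% in the heated post-véraison ones. TL1, a second thaumatin-like gene, went from 981 and 813 to 8726 and 9225 RPKM. CHI4C, another class IV chitinase, went from 12.2 and 10.5 to 41.5 and 52.3 RPKM, a difference of 1.95 ± 0.31 with an adjusted p of 0.00023. GRIP28 went from 1775 and 2123 to 7822 and 8317 RPKM, GRIP31 from 689.9 and 531 to 7143 and 8148 and GRIP32 from 435 and 456 to 5532 and 6754. The libraries of the 2 stages did not overlap for any of these, as for 85.7% of all genes tested. GRIP28, however, was not called with quantile normalization (0.27, adjusted p = 0.28). Not all GRIP genes rose. GRIP55 fell from 48.2 and 54.1 to 17.9 and 17.8 RPKM (-1.47 ± 0.10, limma adjusted p = 7.2e-07). GRIP21, GRIP58 and GRIP68 were not called as deposited and were called higher with median-ratio scaling. GER6, a second germin-like gene, also fell, from 9.47 and 11.5 to 0.391 and 0.731 RPKM, in contrast to GER7.

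The PR10 genes, which encode small cytosolic proteins induced by pathogens in many plants, split. PR10.2 stood at 394 and 313 RPKM before and 2634 and 2664 RPKM after véraison, and PR10.3 at 31 and 42.5 before and 875 and 855 RPKM after. PR10.5 stood at 52.9 and 43 before and 3.57 and 7.09 RPKM after, and PR10.7 at 92.6 and 102 before and 10.6 and 10.3 RPKM after. PR10.2 and PR10.3 thus rose by 2.91 ± 0.20 and 4.54 ± 0.40, while PR10.5 and PR10.7 fell by 3.0 ± 0.37 and 3.1 ± 0.21, with adjusted p-values no larger than 3.9e-05, and the directions held with median-ratio scaling. PR10.4 rose by 1.33 ± 0.36 (adjusted p = 0.0076). PR10.8 rose by 0.95 ± 0.26 (adjusted p = 0.0078), at low levels of 0.366 and 0.973 before and 1.97 and 2.4 RPKM after, and missed the threshold without pre-véraison replicate 1 (adjusted p = 0.078) or post-véraison replicate 2 (adjusted p = 0.052). PR10.9, at 0.525 and 0.929 before and 1.08 and 1.21 RPKM after, was not called. How reads were divided between copies this similar is not given in the sources used here, so the values of single members are uncertain, as are those of TL1 and TL3, CHI4C and CHI4D, and CHS1 and CHS2.

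Enzyme genes of flavonoid synthesis were mostly higher after véraison. Of 17 tested, 11 were higher, 5 lower and 1 not called (11, 3 and 3 with median-ratio scaling), with a median of 1.21. Members were matched by symbol, and whether OMT1 acts in this pathway was not checked. The 5 lower genes were LDOX, LAR2, ANR, OMT1 and VVGT6, and their count became 2 without pre-véraison replicate 1 or without post-véraison replicate 2. At the entry of the pathway stand the chalcone synthases. CHS3 stood at 5.39 and 2.74 RPKM before and 342 and 327 RPKM after véraison, CHS2 at 4.46 and 2.12 before and 68.3 and 49.7 RPKM after, and CHS1 at 4.78 and 3.88 before and 14.1 and 12.5 RPKM after. They rose by 6.1 ± 0.21, 3.84 ± 0.24 and 1.43 ± 0.17, CHS3 most and to the highest level. The next steps belong to chalcone isomerase and flavanone 3-hydroxylase. CHI went from 11.6 and 12.5 to 92.4 and 92.9 RPKM and F3H from 3.28 and 2.26 to 21.5 and 21.4 RPKM, rises of 2.85 ± 0.10 and 2.59 ± 0.21. F3'H, which leads to cyanidin-type pigments, went from 51.7 and 54.4 to 118 and 117 RPKM (1.13 ± 0.11). F3'5'H, which leads to delphinidin-type pigments, went from 0.265 and 0.294 to 10.1 and 4.71 RPKM (2.64 ± 0.27) and stayed below F3'H at both stages. DFR, shared by anthocyanins and tannins, went from 25.2 and 24.2 to 52.3 and 55 RPKM. LDOX, the step after it, went the other way, from 86.9 and 93.3 to 76.4 and 53.6 RPKM, a fall of 0.49 ± 0.17 (adjusted p = 0.023) that became a difference of 0.017 (adjusted p = 0.94) with median-ratio scaling. It also missed the threshold without either pre-véraison library or without post-véraison replicate 2 (adjusted p up to 0.24).

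UFGT and GST4, which act late in the making and storage of anthocyanins, were close to absent before véraison. UFGT went from 0.0876 and 0 to 55.4 and 35.8 RPKM (log2 difference 5.45 ± 0.20, adjusted p = 9.9e-09). GST4, a glutathione S-transferase that carries anthocyanins to the vacuole in grape, went from 0.589 and 0.13 to 405 and 351 RPKM (8.14 ± 0.21, adjusted p = 2.3e-09). Neither reached 1 RPKM in a heated pre-véraison library, and both exceeded 30 RPKM in each post-véraison one. ABCC1, a vacuolar transporter of anthocyanins in grape, fell from 139 and 136 to 21.7 and 18.2 RPKM (-2.73 ± 0.11, adjusted p = 2.1e-08). The reductases that make the flavan-3-ol units of tannins were lower after véraison: LAR2 stood at 15.5 and 16.9 RPKM before and 1.15 and 1.58 RPKM after (-2.87 ± 0.16, adjusted p = 1.1e-07), and ANR at 4.29 and 1.94 before and 1.24 and 0.616 RPKM after (-1.05 ± 0.29, adjusted p = 0.0078). ANR missed the threshold with quantile normalization (-0.51, adjusted p = 0.13), without pre-véraison replicate 1 (adjusted p = 0.084) or without post-véraison replicate 2 (adjusted p = 0.068). The largest fall of the list was OMT1, an O-methyltransferase gene whose role in this pathway was not checked. It went from 19.4 and 15.9 to 0.0819 and 0.23 RPKM (-4.01 ± 0.18, adjusted p = 3.2e-08).

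Among 10 tested regulators of the flavonoid pathway 2 were higher, 6 lower and 2 not called (4, 5 and 1 with median-ratio scaling), near the shares over all genes as deposited (17.2% higher and 53.0% lower). MYBPA1, an activator of tannin genes in grape, went from 0.673 and 1.02 to 9.21 and 8.68 RPKM and rose by 2.43 ± 0.24 (adjusted p = 8.2e-06), while LAR2 and ANR fell. MYB12 went from 7.58 and 6.08 to 0.0846 and 0 RPKM, and WDR1, a WD-repeat protein gene, from 46.8 and 46 to 15.9 and 17.9 RPKM (-1.41 ± 0.10, adjusted p = 9.2e-07). MYB24, a MYB gene outside the list, went from 0.141 and 0.125 to 15.4 and 10.4 RPKM, with 2 reads before véraison and 228 after it.

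All 5 genes of the phenylpropanoid and stilbene list were called higher, with and without median-ratio scaling, and their median was 4.49. PAL, phenylalanine ammonia-lyase at the entry of the pathway, stood at 0.916 and 0.525 RPKM before and 43.6 and 54.5 RPKM after véraison, and a second such gene, GVVPAL2, at 1.09 and 0.485 before and 34.5 and 43.2 RPKM after. VINST1, a stilbene synthase of the resveratrol pathway, stood at 1.42 and 1.18 before and 97 and 108 RPKM after. The 3 rises were 4.86 ± 0.22, 4.49 ± 0.22 and 5.49 ± 0.20, with adjusted p-values from 8.8e-09 to 5.6e-08. The remaining 2 rose less: 4CL from 2.93 and 3.0 to 7.48 and 6.49 RPKM and CCOAMT from 1.36 and 1.75 to 3.77 and 2.57 RPKM. CCOAMT was marginal (0.70 ± 0.27, adjusted p = 0.042) and missed the threshold with a pseudocount of 0.1, no filter, limma voom on recovered reads, or without heated pre-véraison replicate 1 (adjusted p = 0.19), pre-véraison replicate 2 (0.081) or post-véraison replicate 1 (0.23).

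Sugar transport and cleavage genes did not move as a block: of 10 tested, 3 were higher, 4 lower and 3 not called (5, 3 and 2 with median-ratio scaling), and 11 more were too low to test. SWEET15, a sugar exporter gene, went from 74.5 and 62.3 to 1419 and 1399 RPKM (4.35 ± 0.13, adjusted p = 3.8e-09), and HT5 from 0.135 and 0.0597 to 28.1 and 33.5 RPKM (4.85 ± 0.19, adjusted p = 1.7e-08). CWINV, a cell wall invertase, went from 3.99 and 3.41 to 8.28 and 7.49 RPKM (0.92 ± 0.17). The falls included VVSUC27, a sucrose transporter, from 11 and 11.4 to 0.861 and 0.252 RPKM (-3.0 ± 0.21, adjusted p = 6.8e-07), and HT2, from 50.7 and 56.3 to 14.1 and 13 RPKM (-1.91 ± 0.15). HT6, a hexose transporter gene, fell from 319 and 332 to 130.5 and 136 RPKM, and TMT2, named for the tonoplast monosaccharide transporters, from 48.3 and 46.6 to 26.9 and 29 RPKM (-0.74 ± 0.12), the latter not called with median-ratio scaling (-0.25, adjusted p = 0.068). Among the sugar genes named here HT6 had the highest RPKM before véraison and SWEET15 after it.

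All 4 chloroplast genes of the list were lower after véraison under both scalings, with a median of -3.03. PSBP1, a subunit of the oxygen-evolving complex of photosystem II, stood at 453 and 577 RPKM before and 26.7 and 17.1 RPKM after véraison, and its relative PSBP2 at 6.99 and 7.96 before and 0.619 and 0.193 RPKM after. CHLH, the magnesium chelatase subunit of chlorophyll synthesis, stood at 65.1 and 76.6 before and 7.21 and 4.17 RPKM after, and NDHM, a subunit of the chloroplast NDH complex, at 11.3 and 11.6 before and 1.5 and 1.1 RPKM after. The falls ran from 4.51 ± 0.18 to 2.44 ± 0.16, with adjusted p-values up to 3.9e-06.

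Aquaporin genes, whose products let water through the plasma membrane (PIP) or the vacuolar membrane (TIP), were lower after véraison: all 10 were called lower as deposited, and 8 also with median-ratio scaling, where PIP2;1 turned to 0.11 without a call. Their median was -2.66. TIP1;1 stood at 96.8 and 89 RPKM before and 8.39 and 8.65 RPKM after véraison, PIP2 at 127 and 109 before and 9.93 and 10.7 RPKM after, and PIP2;2 at 739 and 642 before and 127 and 129.6 RPKM after. PIP1;1 stood at 11.4 and 13 before and 0.178 and 0.499 RPKM after and TIP2;1 at 320.3 and 358 before and 46.5 and 42.8 RPKM after. TIP1;2 stood at 388 and 456 before and 137 and 155 RPKM after. The first 5 fell by 3.3 ± 0.16, 3.39 ± 0.12, 2.42 ± 0.11, 3.31 ± 0.17 and 2.9 ± 0.15, and TIP1;2 by 1.52 ± 0.17. The 2 whose call depended on scaling were PIP2;1, with 711 and 723 before and 540.3 and 543 RPKM after, and PIP2;3, with 446 and 536 before and 280.1 and 287 RPKM after. PIP2;1 fell by 0.40 ± 0.13 (adjusted p = 0.021) and stood at 0.11 (adjusted p = 0.52) with median-ratio scaling, and it missed the threshold without any 1 of the 4 heated libraries (adjusted p 0.070 to 0.090). PIP2;3 fell by 0.78 ± 0.18 and stood at -0.28 (adjusted p = 0.21) with that scaling.

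The largest fall of a named gene belonged to PPO, polyphenol oxidase, the enzyme that browns cut fruit, with 164 and 189 RPKM before and 2.78 and 1.08 RPKM after véraison (-5.98 ± 0.38, adjusted p = 3.0e-07). It belongs to the redox list, in which 3 genes were higher and 5 lower (3 and 4 with median-ratio scaling). POD1, a peroxidase gene, went from 47.9 and 42.6 to 3.67 and 1.59 RPKM (-3.73 ± 0.23), and SODCP, a superoxide dismutase gene, from 117 and 154 to 33.9 and 42.8 RPKM (-1.79 ± 0.14). The higher ones were thioredoxin and glutaredoxin genes, among them Trxh, from 389 and 424 to 1154 and 1353 RPKM (1.62 ± 0.13), and GRX, from 73.8 and 65.3 to 97.4 and 104 RPKM (0.53 ± 0.10). The cell wall list held 3 genes. VPRP1, a proline-rich protein gene, went from 97.7 and 86.4 to 3.93 and 3.67 RPKM (-4.28 ± 0.28, adjusted p = 3.9e-07), and PL1, a pectate lyase, from 680.1 and 760.0 to 112 and 108 RPKM (-2.7 ± 0.14, adjusted p = 9.5e-08). BG1 alone was higher, from 4.45 and 3.43 to 9.45 and 10.5 RPKM (1.16 ± 0.18, adjusted p = 0.00018).

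Among calcium sensors of the CBL family and the CIPK kinases they bind, 25 were tested: 4 were higher, 16 lower and 5 not called (6, 10 and 9 with median-ratio scaling), near the shares over all genes (17.2% higher and 53.0% lower, scaled 32.2 and 34.5%). Of the 4 higher genes 3 were kinases that rose by more than 2 on the log2 scale. CIPK20 went from 64 and 63.8 to 507 and 629.9 RPKM (3.12 ± 0.11), CIPK15 from 17 and 18 to 150.1 and 142 RPKM (2.99 ± 0.09) and CIPK16 from 0.265 and 0.134 to 5.47 and 6.66 RPKM (2.56 ± 0.27), with adjusted p-values up to 1.2e-05. None of these overlapped between stages, as for 85.7% of all genes tested. CBL04, the sensor with the largest fall, went from 8.04 and 3.39 to 0.463 and 0.216 RPKM (-2.24 ± 0.33).

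The 3 alcohol dehydrogenase genes split. ADH2, which is known to be ripening-related in grape, stood at 438 and 476 RPKM before and 979.9 and 1042 RPKM after véraison (1.14 ± 0.13, adjusted p = 2.0e-05). ADH1 stood at 38.2 and 42.4 before and 6.68 and 8.35 RPKM after (-2.28 ± 0.21) and ADH3 at 133 and 138 before and 42.7 and 44.4 RPKM after (-1.62 ± 0.09). ADH2 had the highest RPKM of the 3 at both stages.

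Of 14 tested genes on the hormone list, 3 were higher, 8 lower and 3 not called (5, 5 and 4 with median-ratio scaling). These are near the shares over all genes (17.2% higher and 53.0% lower). Members were matched by symbol, and whether CTR1, CTR2, CTR6 and CTR8 are hormone genes was not checked. LOX, a lipoxygenase gene, rose from 0.137 and 0.162 to 2.45 and 2.29 RPKM (1.55 ± 0.21). BR6OX1, a brassinosteroid oxidase, fell from 92.3 and 85.2 to 13 and 14.7 RPKM (-2.6 ± 0.11). The VVGAI1 gene itself, a DELLA repressor of gibberellin responses, fell from 2.66 and 2.85 to 1.05 and 0.906 RPKM (-0.93 ± 0.16, adjusted p = 0.00056), but not with quantile normalization (-0.39, adjusted p = 0.068).

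In the carotenoid list 2 genes were higher and 3 lower (2 and 2 with median-ratio scaling). BCH1, a beta-carotene hydroxylase, went from 0.573 and 0.507 to 2.93 and 3.62 RPKM (1.47 ± 0.27), and CCD4b, a carotenoid cleavage dioxygenase, from 29.6 and 28.6 to 88.3 and 83.2 RPKM (1.53 ± 0.12). ZEP, zeaxanthin epoxidase, went from 27.5 and 28.2 to 4.93 and 5.41 RPKM (-2.23 ± 0.13) and PDS1, phytoene desaturase, from 23.2 and 19.1 to 9.43 and 9.06 RPKM (-1.11 ± 0.15). CCD1, a second cleavage dioxygenase, fell by 0.69 ± 0.10 but not with median-ratio scaling (-0.18, adjusted p = 0.13). Of 7 tested genes on the list of MADS box genes, the floral and fruit regulators, 2 were higher, 3 lower and 2 not called (3, 3 and 1 with median-ratio scaling). Members were matched by symbol, and whether AP2, which is among the 7, has a MADS box was not checked. MADS5 went from 1.45 and 2.34 to 5.35 and 3.67 RPKM and MADS1 from 206 and 206 to 104 and 112 RPKM, while TM6 stood at 118 and 111 before and 110.3 and 120.1 RPKM after, levels that overlapped. Of the 3 WRKY transcription factor genes tested, only WKRY, spelled so in the reference, was called as deposited, from 7.67 and 8.67 to 3.12 and 3.0 RPKM (-1.17 ± 0.19, adjusted p = 0.00033). WRKY20 stood at 0.47 and was called with median-ratio scaling (adjusted p = 0.0053).

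**Figure D3:**
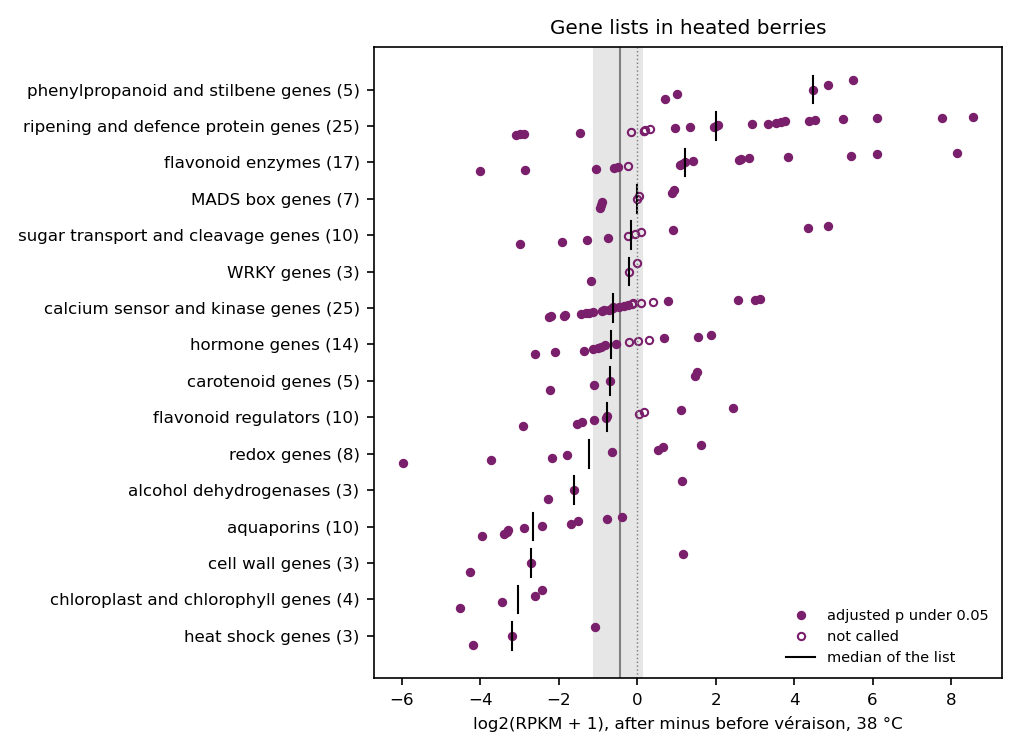
Each point is a tested gene of a list, placed by its log2 difference between heated post-véraison and heated pre-véraison berries, filled where called; short lines are list medians, numbers in brackets the genes tested, and the grey line and band the median and middle quartiles of all genes tested. Aquaporin, chloroplast and heat shock genes lie below 0 (PIP2;1 moved to 0.11 with median-ratio scaling), and all 5 phenylpropanoid and stilbene genes lie above it.

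The 3 named heat shock genes of the list were less abundant in the heated berries after véraison than before it. Heat shock genes without a descriptive name were not identified. HSP101, the chaperone that pulls apart protein aggregates, stood at 944 and 1075 RPKM in the 2 heated pre-véraison libraries and at 65.2 and 45.7 RPKM in the 2 heated post-véraison ones. HsfA2, a heat shock transcription factor that sustains the response, stood at 562 and 658 before and 73.8 and 57.1 RPKM after, and BiP, the chaperone of the endoplasmic reticulum, at 9.75 and 9.8 before and 4.28 and 3.96 RPKM after. No library of one stage overlapped the other, as for 85.7% of all genes tested. The differences were -4.18 ± 0.17 for HSP101 (adjusted p = 2.2e-08), -3.21 ± 0.27 for HsfA2 (adjusted p = 2.2e-06) and -1.07 ± 0.15 for BiP (adjusted p = 0.00012), and all 3 remained called lower with median-ratio scaling. In the unheated berries the same genes stood at 7.12 and 6.34 RPKM before and 4.74 and 6.45 RPKM after véraison for HSP101, at 3.14 and 1.69 before and 1.12 and 2.75 RPKM after for HsfA2, and at 2.66 and 3.26 before and 3.89 and 4.13 RPKM after for BiP, and the stage difference at 16 °C was -0.24 ± 0.17, -0.24 ± 0.27 and 0.34 ± 0.15. The stage difference at 38 °C minus that at 16 °C, the interaction of stage and temperature, was -3.94 ± 0.25 for HSP101 (adjusted p = 1.2e-05), -2.96 ± 0.38 for HsfA2 (adjusted p = 0.001) and -1.42 ± 0.22 for BiP (adjusted p = 0.0032). DHAR, dehydroascorbate reductase, which regenerates the antioxidant ascorbate, behaved likewise, with 148 and 162 before and 36.5 and 30.7 RPKM after in heated berries, 29.3 and 24.8 before and 21.6 and 28.4 RPKM after in unheated ones and an interaction of -2.06 ± 0.21 (adjusted p = 0.00022).

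Most of the stage difference was present in unheated berries too. At 16 °C 2498 genes were higher after véraison (14.9%) and 9557 lower (57.0%), together 71.9%, with a median of -0.52; median-ratio scaling gave 5341 (31.8%) and 5630 (33.6%). Of the genes higher at 38 °C, 2022 were also higher at 16 °C, which is 70.0% of those at 38 °C and 80.9% of those at 16 °C. Of the genes lower at 38 °C, 7926 were also lower at 16 °C, which is 89.1 and 82.9%. With median-ratio scaling, 4389 of the 5396 genes higher at 38 °C were also higher at 16 °C. Of the 5791 then lower at 38 °C, 4720 were also lower at 16 °C. The larger shared part of the falls thus depended on scaling. The 2 comparisons share no library, but they share 1 estimate of the spread of each gene, so their calls are not independent. The interaction was called for 662 genes in the positive direction (3.95% of those tested) and 592 in the negative one (3.53%), together 1254 (7.47%), and with median-ratio scaling for 416 (2.48%) and 624 (3.72%). The 1254 became 711 without pre-véraison replicate 2, 696 without post-véraison replicate 1 and 748 without post-véraison replicate 2 among the heated libraries, so this count depends on single libraries. Most genes called at 1 temperature alone had no called interaction: of 799 higher at 38 °C and not called at 16 °C 110 had one, and of 867 lower at 38 °C and not called at 16 °C 193 had one.

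**Figure D4:**
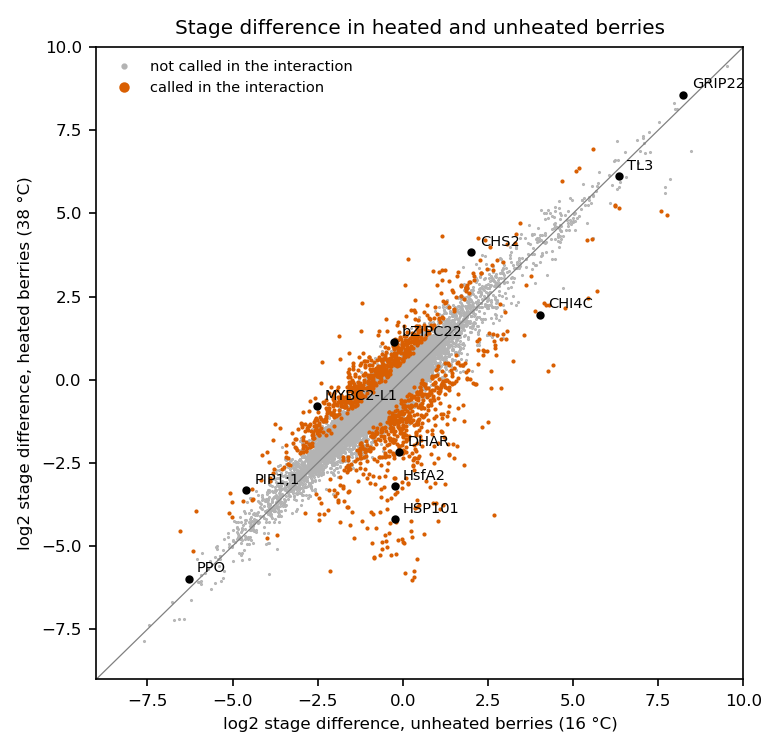
Each point is 1 of the 16777 genes tested, with its stage difference at 16 °C on the horizontal axis and at 38 °C on the vertical axis (log2), in orange where the interaction was called and in black where labelled. HSP101 and HsfA2 lie far below the diagonal, near 0 at 16 °C and at -4.18 and -3.21 at 38 °C, while GRIP22 lies near the diagonal with a large rise at both temperatures.

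Among genes called at both temperatures, the stage difference had opposite signs for 175. Of these, 107 were called lower after véraison at 38 °C and called higher at 16 °C, 106 of them with a called interaction, with medians of -1.08 and 0.79 (146 genes with median-ratio scaling). None of these 107 genes with both calls has a descriptive name. The gene among them with the most negative interaction, LOC100266315, stood at 212 and 305 RPKM in heated berries before véraison and at 18.5 and 10.7 RPKM after it, a difference of -4.08 against 2.67 at 16 °C (interaction -6.75, adjusted p = 6.7e-05). The reverse, again with both calls, was found for 68 genes, 65 with a called interaction, with medians of 0.56 and -0.58 (46 genes with median-ratio scaling). One of them has a name. MYB30, a MYB transcription factor gene, stood at 12.4 and 8.28 RPKM before and 18.8 and 15.4 RPKM after véraison in heated berries and at 24.8 and 26 before and 17.3 and 17.3 RPKM after in unheated ones. Its stage difference was 0.69 ± 0.17 at 38 °C and -0.53 ± 0.17 at 16 °C, with an interaction of 1.22 ± 0.24 (adjusted p = 0.013; 0.060 without heated post-véraison replicate 1). With median-ratio scaling the MYB30 difference was 1.16 at 38 °C and 0.06 at 16 °C (limma adjusted p = 0.77). The signs of MYB30 were then not opposite. The placeholder with the largest such change of sign as deposited, 100245193, stood at 7.97 and 6.36 RPKM before and 39.8 and 38.7 RPKM after véraison at 38 °C (interaction 3.51).

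Of the 250 named genes tested 30 had a called interaction, 18 positive and 12 negative, beside 7.47% of all genes (3.95% positive and 3.53% negative). CHS2 rose with stage more in heated berries: its libraries stood at 10.7 and 12.1 before and 54.1 and 44.1 RPKM after at 16 °C against 4.46 and 2.12 before and 68.3 and 49.7 RPKM after at 38 °C, an interaction of 1.83 ± 0.34 (adjusted p = 0.0095). Before véraison both heated libraries lay below both unheated ones, and after véraison the ranges overlapped. MYBC2-L1, which encodes a MYB repressor of the flavonoid pathway, stood at 84.1 and 65.6 RPKM before and 10.8 and 13.3 RPKM after véraison at 16 °C and at 19.6 and 14.7 before and 11.4 and 7.77 RPKM after at 38 °C. Its fall was 0.79 ± 0.20 at 38 °C against 2.53 ± 0.20 at 16 °C (interaction 1.75 ± 0.28, adjusted p = 0.0044), and the fall at 38 °C was not called with median-ratio scaling (-0.32, adjusted p = 0.16) or without pre-véraison replicate 1 (adjusted p = 0.064) or post-véraison replicate 2 (adjusted p = 0.055). PIP1;1 was less different between stages at 38 °C (-3.31 ± 0.17) than at 16 °C (-4.6 ± 0.17), with an interaction of 1.29 ± 0.24 (adjusted p = 0.01) that missed the threshold with a pseudocount of 0.1 or in limma voom on recovered reads (adjusted p up to 0.13). MRIP1 was higher after véraison at both temperatures, by 5.24 ± 0.15 at 38 °C and 6.24 ± 0.15 at 16 °C (interaction -1.0 ± 0.21, adjusted p = 0.016). WKRY, which fell at 38 °C, differed by 0.46 ± 0.19 at 16 °C (interaction -1.64 ± 0.27, adjusted p = 0.0053). The interaction of HSP101, HsfA2, DHAR, WKRY, BiP, CHS2 and MYBC2-L1 was called in each of the 17 alternatives run; that of MRIP1 missed the threshold in 6 of them, 5 of which left out a library.

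**Figure D5:**
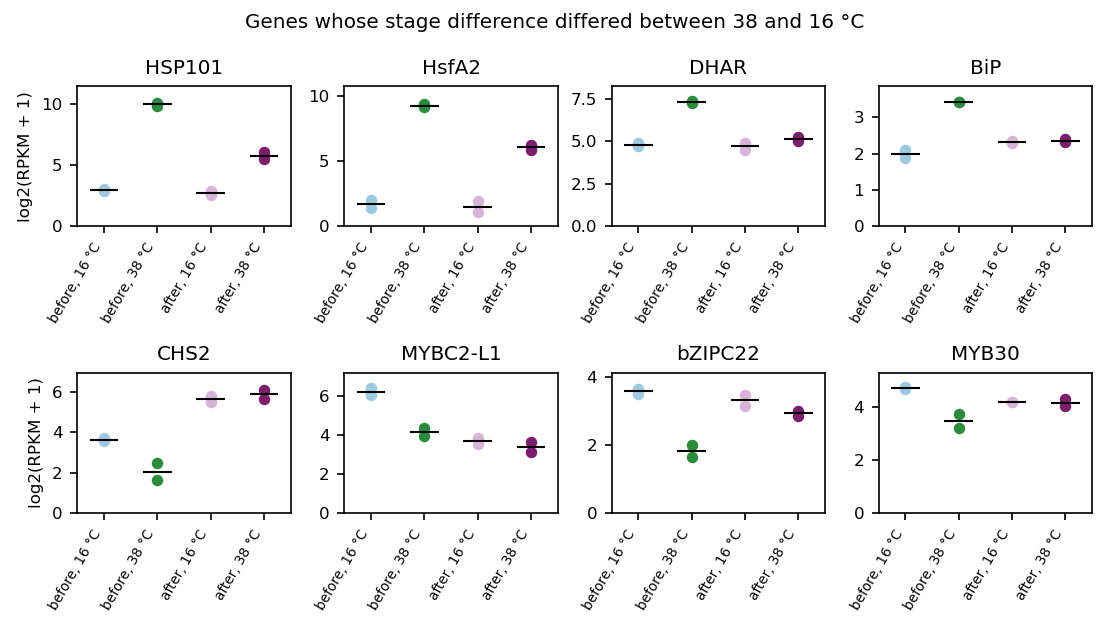
Points are the log2(RPKM + 1) of single libraries before and after véraison in unheated (16 °C) and heated (38 °C) berries for 8 genes with a called interaction, and lines are the means of 2 libraries. HSP101, HsfA2 and DHAR are highest in both heated pre-véraison libraries; the heated post-véraison libraries lie below these and above the unheated ones, which lie close together at the 2 stages.

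Not every named gene differed measurably by stage. Of the 250 tested, 78 were higher, 133 lower and 39 not called in heated berries, and with median-ratio scaling 100 were higher and 102 lower. Under both scalings 17 were not called. As deposited, the 95% intervals of their differences lay between -0.77 and 1.00 on the log2 scale, so differences of up to about that size are not excluded. Intervals with median-ratio scaling are not given here. With that scaling 31 of the 133 lower genes lost their call and none turned higher. Of the 39 not called, 22 were higher with that scaling, TM6 among them (0.00 ± 0.10 as deposited and 0.51 scaled, adjusted p = 0.00066).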

How the data were processed

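Illumina single-end reads of mRNA from berries without seeds gave 8 libraries, 2 for each stage and temperature. Values are RPKM as deposited by the authors, 1 column per library; per the submitters' processing notes reads were aligned with Bowtie 0.12.7 and TopHat 1.2.0. The sources used here do not state the build, annotation, counting tool, strand or treatment of multiply matching reads. Each value is a whole multiple of what 1 read is worth, so reads were recovered for 20845 of 20845 genes above 0 in at least 3 libraries (100%, within 0.001 reads), apart from a possible common divisor; limma voom on them called 11971 genes. Of 25771 IDs 18647 matched the reference table (assembly ASM3070453v1), used for names only.

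Tests covered genes reaching 1 RPKM in 2 or more of the 8 libraries and used log2(RPKM + 1) in limma 3.58.1 in R 4.3.3, which understates the change of low genes: 4 group means over all 8 libraries, intensity trend, two-sided, 4 residual and 6.06 prior degrees of freedom, Benjamini-Hochberg over all genes of a comparison. The procedure was tested on simulated data. Ratio intervals are exact 95% counting intervals; PCR duplicates were not separable, and so they cover counting error only. Pearson r between replicates was 0.988 to 0.992; a chi-square of their reads averaged 4.11 to 13.7 per gene, above the 1 of pure counting error, so none was a copy.

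Named in the text were the 12 largest rises and falls among named genes with a call, no overlap and a mean of at least 5 RPKM, up to 4 genes per list with the smallest adjusted p, up to 10 interactions each way, the 10 most abundant genes and, over all genes, the 10 largest differences. Passed over for lack of a name in the first part were 94 rises and 423 falls. A further 41 were chosen after their values were seen: CHS1, F3H, F3'5'H, F3'H, DFR, LAR2, ANR, LDOX, FLS1, VVGT6, PR10.2, PR10.4, PR10.5, PR10.7, PR10.8, PR10.9, TL1, GRIP28, GRIP31, GRIP32, GER6, TIP2;1, TIP1;2, PIP2;1, PIP2;3, MYB24, ABCC1, HT6, TMT2, CWINV, Trxh, GRX, TM6, VVGAI1, MADS5, BCH1, LOX, CCOAMT, CBL04, CIPK16 and GA2ox6. Besides these, GRIP21, GRIP55, GRIP58 and GRIP68 were named after their values were seen. The members, lists and rule were chosen with earlier results of these data known, and the grape prefix Vv was dropped from symbols before list matching. The list of cell division genes matched no tested gene. Alternatives changed the pseudocount, filter, scaling, prior, libraries, replicate block and unit. Other steps used Python 3.11.15, pandas 2.3.3, scipy 1.17.1 and matplotlib 3.10.9.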

Additional observations from a re-analysis of the deposited data

Results flagged for a closer look

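The genes below were picked out because the stage difference of heated berries differed from that of unheated berries by a test of that difference, the interaction of stage and temperature in limma (adjusted p under 0.05). A gene was listed only if it is named in the report or by the naming rule. Values are the interaction ± SE on the log2 scale, negative where the post-véraison level, relative to the pre-véraison one, was lower in heated than in unheated berries.

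The negative interactions were led by HSP101 (-3.94 ± 0.25), HsfA2 (-2.96 ± 0.38), DHAR (-2.06 ± 0.21) and BiP (-1.42 ± 0.22), all described above with their libraries. CHI4C had -2.07 ± 0.43: it was 0.786 and 0.135 before and 32 and 15.3 RPKM after véraison in unheated berries and 12.2 and 10.5 before and 41.5 and 52.3 RPKM after in heated ones. WKRY had -1.64 ± 0.27, and MRIP1 had -1.0 ± 0.21. BG1 had -1.02 ± 0.25, with a stage difference of 2.18 ± 0.18 at 16 °C against 1.16 ± 0.18 at 38 °C. CIPK01, with 27.3 and 29.9 before and 25.2 and 23 RPKM after véraison in heated berries, had -0.97 ± 0.16, from a stage difference of 0.73 ± 0.12 at 16 °C to -0.24 ± 0.12 at 38 °C. CYN had -0.93 ± 0.19, from -1.26 ± 0.13 to -2.19 ± 0.13. CIPK20 had -0.65 ± 0.16 and PIP2;2 had -0.65 ± 0.15, both small beside their stage differences.

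The positive interactions were led by CHS2 (1.83 ± 0.34) and MYBC2-L1 (1.75 ± 0.28). The regulators bZIPC22 and MYBCS1 had 1.39 ± 0.25 and 1.16 ± 0.18. For bZIPC22 the stage difference was -0.27 ± 0.18 at 16 °C and 1.12 ± 0.18 at 38 °C, where it stood at 2.97 and 2.1 before and 6.99 and 6.3 RPKM after véraison. For MYBCS1 it was -2.69 ± 0.13 and -1.54 ± 0.13. FLS1, flavonol synthase, had 1.35 ± 0.34 at a level of 0.399 and 0.618 before and 0.329 and 0.231 RPKM after véraison in heated berries. PIP1;1 had 1.29 ± 0.24 and MYB30 had 1.22 ± 0.24. CHS1 had 0.98 ± 0.25, from 0.45 ± 0.17 at 16 °C to 1.43 ± 0.17 at 38 °C. GS1 had 0.98 ± 0.16, from 0.50 ± 0.11 to 1.48 ± 0.11. CIPK15 had 0.90 ± 0.13, CBL01 had 0.89 ± 0.18, CCD4b had 0.86 ± 0.17 and ADH3 had 0.49 ± 0.13.

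Of these 25 interactions, 12 were called in every alternative run, and 13 were not called in at least 1. CHS1, FLS1, ADH3, CIPK20 and PIP2;2 were called in 5 of 17, 4 of 16, 6 of 17, 7 of 17 and 7 of 17 alternatives, with adjusted p-values up to 0.15, 0.14, 0.17, 0.15 and 0.12. CHI4C and BG1 missed it without either heated pre-véraison library, among others, with adjusted p-values up to 0.25 and 0.13.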

How the results depend on the processing

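The count of genes called at 38 °C lay between 9600 and 12440 in the 10 alternatives that kept all the replicates compared, and between 10288 and 10835 when 1 heated library was left out. The split by direction depended on scaling: 5396 genes were higher and 5791 lower with median-ratio scaling, and 5717 and 5294 with quantile normalization, against 2889 and 8900. Leaving out 1 library gave 2396 to 2649 higher and 7748 to 8382 lower. The interaction count was 696 to 1061 without 1 library and 907 to 1507 in the other alternatives, and the stage difference at 16 °C had 10751 to 11293 calls without 1 library. Limma voom on recovered reads gave 2955 higher, 9016 lower and 1259 interactions.

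Replicate numbers did not pair the libraries (correlations of deviations -0.052 to 0.025). With the replicate number as a block 11630 genes were called at 38 °C (2827 higher, 8803 lower), 11900 at 16 °C and 1057 in the interaction.

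Of 118 genes named by the rule or in the text, without GRIP21, GRIP55, GRIP58 and GRIP68, 100 kept direction and call at 38 °C in all alternatives. Signs turned for CIPK01 (0.25 with median-ratio scaling and 0.16 with quantile normalization, against -0.24), WRKY2 (0.25 and 0.40, against -0.20) and WRKY20 (0.47 and 0.47, and -0.043 to 0.039 without 1 heated library). They also turned for TM6 (-0.058 to 0.065 without 1 heated library), LDOX (0.017 with median-ratio scaling), PIP2;1 (0.11 with it) and FLS1 (0.23 with quantile normalization). Why was not tested, beyond what scaling does to all genes. Among lists, quantile normalization gave 4 higher MADS box genes for 2, 8 higher calcium genes for 4 and 2 lower flavonoid enzymes for 5, and the filter of 5 RPKM, with fewer genes tested, 5 lower hormone genes for 8, 3 lower flavonoid enzymes for 5 and 1 higher carotenoid gene for 2.

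With 2 libraries a group, fitted spreads are shared across genes, and a library left alone in its group is assumed to vary like the others. At 3 reads a median gene is near 0.2 RPKM, below which ratios are counting limited. The fit on the 4 heated libraries alone cannot give an interaction.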
